A study of Mus musculus with 4 samples.

Results

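The comparison described here sets the Ctcfl line against wild-type P19 cells after retinoic acid, 1 array a side. P19 is a mouse embryonal carcinoma line that leaves its stem cell state when exposed to retinoic acid. The value table held 41345 probe sets. Of these, 23521 carried a single gene symbol and were used, which gave 22180 genes after 1 probe set was kept per gene. A filter on low signals left 18310 genes: a gene had to reach log2 6 on at least 1 of the 4 arrays of the study. Wild-type cells and the Ctcfl line had both received 10 µM retinoic acid for 4 days. The same 2 lines were also measured without retinoic acid, again with 1 array each, and these arrays serve below for comparison. The Ctcfl line is a single P19 clone with stable integrates named pBI-EGFP-FLAG-mCtcfl and pTA-N, a Tet-Off system in which doxycycline represses the transgene. It was grown with 2 µg/ml doxycycline, which was taken away 2 days before RNA extraction. For wild-type cells the labels disagree: the growth description gives ordinary medium, and the sample characteristics give 2 µg/ml doxycycline. Wild-type cells carried no integrate per the labels, so the transgene, the clone it sits in and any difference in doxycycline cannot be told apart.

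Ctcfl, also called BORIS, is the testis paralog of Ctcf. Both proteins read similar DNA sequences through a row of zinc fingers, and Ctcf holds chromatin loops together with cohesin. Ctcfl is normally expressed in male germ cells. Retinoic acid enters the nucleus on cellular binding proteins and acts through receptors of the RAR and RXR families, which sit at paired DNA half-sites. In embryonal carcinoma cells it switches on Hox genes and the enzymes that degrade it, while genes of the stem cell state decline.

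In retinoic acid the Ctcfl line exceeded wild type by 2-fold or more in 152 of the 18310 genes (0.830%) and lay as far below it in 73 (0.399%). The highest named protein-coding genes were Grb10, Lefty1, Dppa2, Adgrg1, Ctcfl and Ctsc, each over 4-fold apart. The lowest were Tspan6, Cftr, Nepn, Hapln1, Flrt2 and Ripply3. At a limit of 3-fold the counts were 27 and 21, and at 4-fold 11 and 12. The median log2 difference over all genes was -0.02, the SD 0.315, and the 5th and 95th percentiles were -0.43 and 0.49. All differences below are log2 values of the Ctcfl line minus wild type in retinoic acid unless another state is named. There were no replicates, so no test was made and precision is limited by the single array a side. The only measure of spread is technical: probe sets of the same gene gave differences with an SD of 0.226 around their gene's mean, over 874 genes. These probe sets share the same RNA and arrays, so the SD holds no error of culture, extraction or labelling. Among 2-fold genes the spread was wider: of 12 other probe sets that reached the filter, 1 was itself 2-fold apart in the same direction. Foxq1, for example, gave 1.73 and 0.47. In RNA from bulk cultures, fewer cells of a kind and less RNA per cell cannot be told apart.

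**Figure D1:**
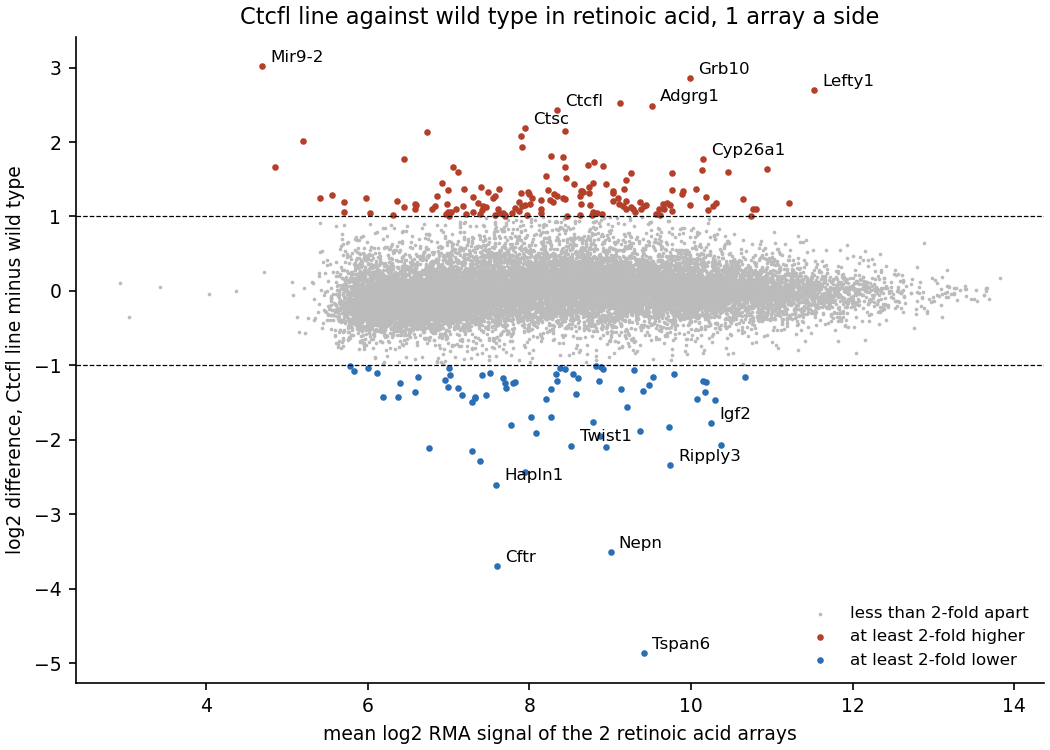
Difference between the Ctcfl line and wild type in retinoic acid (vertical axis, log2) against the mean log2 RMA signal of the same 2 arrays (horizontal axis), 1 point per gene. Dashed lines mark 2-fold; 152 genes lie above the upper line and 73 below the lower one, among 18310.

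The markers of the treatment were high on both retinoic acid arrays. Rarb, a retinoic acid receptor and a direct target, read 6.63 in undifferentiated wild-type cells, 10.09 in treated wild-type cells, 6.54 in the undifferentiated Ctcfl line and 9.77 in the treated one. Over 8 measured response markers the median signal was 7.30 and 11.10 in the wild type without and with retinoic acid, and 7.73 and 11.02 in the Ctcfl line. Hoxb1 read 11.55 and 11.63 on the wild-type and Ctcfl-line arrays in retinoic acid, and Dhrs3, a retinaldehyde reductase, 11.81 and 11.75. In these 3 genes the treated arrays differed by less than 2-fold. Not all response markers were that close: Cyp26a1 differed by 1.77 and Nr2f1 by -1.02. The remaining ones, Meis1, Stra6 and Crabp2, differed by -0.58, 0.06 and 0.23. Of 11 markers of embryonal carcinoma cells, 10 reached log2 6 on every array, and Dppa5a did not on any. Some of the 10 were weak: Zfp42 read 6.12 to 6.46 on the 4 arrays. Tdgf1 read 6.09 and 6.76 on the treated wild-type and Ctcfl-line arrays, and Dppa4 6.73 in the treated Ctcfl line. Such signals overlap those of olfactory receptor genes, so reaching log2 6 does not show that a marker is expressed. Among 10332 probe sets outside the gene annotation that passed the same filter, 417 (4.04%) were at least 2-fold higher in the Ctcfl line and 40 (0.387%) were lower by that much. This excess of higher values stands beside every count of higher genes given here, and its part in them was not tested.

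Ctcfl itself read 7.86 in undifferentiated wild-type cells, 7.13 in treated wild-type cells, 10.41 in the undifferentiated Ctcfl line and 9.56 in the treated line. Both arrays of the Ctcfl line lay above both wild-type arrays, and the difference in retinoic acid was 2.42, or 5.36-fold. Ctcf, by contrast, read 10.76 and 10.80 on the 2 treated arrays. Among 21 genes past the filter for Ctcf, cohesin and its loaders, Ctcfl was the only one 2-fold apart. The next highest was Nipbl, the cohesin loader, at 0.45, and the lowest was Maz, a zinc finger factor, at -0.28. The genes on either side of Ctcfl in gene order were close to equal in both lines: Rae1 differed by -0.21, Rbm38 by -0.01 and Pck1 by -0.30. Pmepa1, an inhibitor of Smad signalling that lies 3 places from Ctcfl, was 1.33 higher, and by 0.39 in undifferentiated cells. It was picked out after its value was seen.

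Nodal and its inhibitors gave some of the largest positive differences. Nodal is a TGF-beta family ligand of the early embryo, and Lefty1 and Lefty2 are secreted inhibitors that Nodal signalling itself induces. Lefty1 read 9.47 and 10.17 in wild-type cells without and with retinoic acid, and 8.70 and 12.87 in the Ctcfl line. The treated Ctcfl line was the highest of the 4 arrays and the undifferentiated Ctcfl line the lowest. The difference was 2.70 (6.48-fold) in retinoic acid and -0.78 in undifferentiated cells. Lefty2 followed the same order, with 6.89 and 7.36 in the wild type and 6.63 and 9.51 in the Ctcfl line, a difference of 2.14. Lefty1 and Lefty2 are close paralogs that neighbour each other, so their probe sets may share signal. Tmem63a, on the other side of Lefty1 in gene order, differed by 1.16 in retinoic acid and by -0.80 undifferentiated. It was picked out after its value was seen. Nodal read 9.02 and 9.32 in the wild type and 10.36 and 10.94 in the Ctcfl line. Unlike the Lefty genes, Nodal was higher in the Ctcfl line in both states, by 1.34 undifferentiated and 1.62 in retinoic acid.

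The rest of the Nodal and activin list moved little. Of 23 genes past the filter, 3 were 2-fold higher and 0 lower, against 0.830% and 0.399% of all genes. The median was 0.03 (below 0 after quantile normalization) against -0.02 for all genes. Tdgf1, the Nodal co-receptor, differed by 0.68, and Foxh1, a nuclear partner of Smad proteins, by 0.49. Tdgf1 read only 6.09 and 6.76 on the treated wild-type and Ctcfl-line arrays, near background, so its difference there says little. In undifferentiated cells it read 9.78 and 11.33 and was 1.55 higher in the Ctcfl line. The signal carriers Smad2 and Smad3 differed by -0.02 and -0.44, the receptor gene Acvr1b by 0.28, and the inhibitor genes Cer1 and Fst by -0.42 and -0.20. In the list of BMP and TGF-beta signals, 1 of 44 genes was 2-fold apart: Chrdl1, a BMP antagonist, at 1.04, which fell short of 2-fold after quantile normalization. Bmp2 was the lowest of that list at -0.90.

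Genes of the stem cell state were split. In the pluripotency list 7 of 44 genes were higher by 2-fold or more and 0 lower. Over all genes the shares were 0.830% and 0.399%. The 7 were Lefty1, Dppa2, Lefty2, Nr0b1, Nodal, Nanog and Tbx3. The median of the list was 0.05, with 61.4% of its genes above 0 against 46.1% of all genes. In undifferentiated cells 4 genes of the list were 2-fold higher in the Ctcfl line and 0 lower, with a median of 0.11. Lists overlap: Lefty1, Lefty2 and Nodal are also the 2-fold genes of the Nodal and activin list. Dppa2, a chromatin protein of early embryos, read 10.32 and 7.85 in wild-type cells without and with retinoic acid and 11.21 and 10.38 in the Ctcfl line. Treated wild-type cells were thus the lowest of the 4 arrays, and the treated Ctcfl line lay at the level of undifferentiated wild-type cells. Nr0b1, an orphan nuclear receptor, read 9.98 and 6.94 in the wild type and 10.67 and 8.88 in the Ctcfl line, a difference of 1.94 (3.83-fold). Nanog, a homeobox factor of the stem cell state, read 10.83 and 8.47 in the wild type and 11.63 and 10.05 in the Ctcfl line, a difference of 1.58. Both genes were lower with retinoic acid than without it in both lines.

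Several other genes of the list were close to equal in the treated lines. Pou5f1 (Oct4) read 8.10 and 8.14 and Sox2 11.58 and 11.71 on the wild-type and Ctcfl-line arrays. Esrrb differed by 0.02 and Klf4 by -0.12. Zfp42 differed by -0.03, but it read only 6.12 to 6.46 on the 4 arrays. Such signals overlap those of olfactory receptor genes, so its equality says nothing of the stem cell state. Lin28a, an RNA-binding protein that blocks let-7 maturation, was the lowest of the list at -0.98. Otx2, a factor of the epiblast and forebrain, read 11.22 and 7.11 in the wild type and 10.76 and 8.03 in the Ctcfl line, a difference of 0.92. Trh, which encodes the precursor of thyrotropin-releasing hormone, was also lowest in treated wild-type cells: 13.13 and 10.12 in the wild type, 13.59 and 11.75 in the Ctcfl line, a difference of 1.63. The 6 genes of the Mir302 and Mir290 clusters, microRNA genes of the stem cell state, had median signals of 3.73 on both treated arrays, and 9.56 and 9.44 in undifferentiated cells of the wild type and the Ctcfl line.

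Retinoid genes moved in both directions. Cyp26a1, the hydroxylase that degrades retinoic acid, read 7.11 and 9.26 in wild-type cells without and with retinoic acid, and 7.27 and 11.03 in the Ctcfl line. The undifferentiated arrays differed by 0.15, and the treated ones by 1.77 (3.42-fold). Of 33 retinoid genes past the filter, 1 was 2-fold higher and 4 were 2-fold lower, against 0.830% and 0.399% of all genes. Their median was -0.11. The 4 were Aldh1a2, which makes retinoic acid from retinaldehyde, the related Aldh1a7, and the orphan nuclear receptors Nr2f2 and Nr2f1. Aldh1a2 read 6.44 and 8.37 in the wild type and 6.25 and 7.06 in the Ctcfl line, a difference of -1.31. Nr2f2 read 7.11 and 9.82 in the wild type and 6.77 and 8.76 in the Ctcfl line, a difference of -1.06. Both were higher with retinoic acid in both lines and lower in the treated Ctcfl line than in treated wild-type cells. Rdh10, a retinol dehydrogenase, differed by -0.80, and Cyp26b1, another degrading enzyme, by -0.70. Crabp1 and Crabp2, which carry retinoic acid in the cell, differed by -0.66 and 0.23. The receptor genes Rara, Rarb and Rarg differed by 0.18, -0.32 and 0.43, and Stra6, which takes up retinol, by 0.06.

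The promoter of Cyp26a1 is shown because this gene had the largest retinoid difference and a retinoic acid response motif can be looked for in it. The sequence is RefSeq's, assembly GRCm38.p6, chr19:37697558-37697807 on the plus strand, 250 bases that end at the annotated start. Capitals mark 2 copies of AGTTCA in the same direction 5 bases apart, read on the reverse strand. The motif begins 32 bases before the start.
Cyp26a1: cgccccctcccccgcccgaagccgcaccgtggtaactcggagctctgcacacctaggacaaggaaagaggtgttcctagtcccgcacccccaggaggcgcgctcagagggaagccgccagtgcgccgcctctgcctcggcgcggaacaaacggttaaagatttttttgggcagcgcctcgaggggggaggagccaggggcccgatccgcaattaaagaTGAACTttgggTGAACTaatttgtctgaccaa
Both strands of the promoters of 14149 genes past the filter were searched for this repeat. It stood in 3 genes (0.0212%): Blvrb, Cyp26a1 and Tnfsf13b. Of the 2-fold genes with a promoter sequence, 1 of 107 higher genes and 0 of 46 lower genes held it. The 1 higher gene was Cyp26a1 itself, the gene picked for display, so this count carries no support. Only this exact repeat was counted, and repeats with other spellings of the half-site were left out. A core of the Ctcf motif, CCA, any 2 bases, AG, any 2 bases, GGC, stood in 445 genes (3.15%). It was found in 2 of the 107 higher and 2 of the 46 lower genes, which were 6530402F18Rik, Zcwpw1, Cxcl15 and Prss23. Such matches describe letters in a short window and are not binding sites.

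Most Hox genes were somewhat higher in the Ctcfl line. Hox genes encode homeobox factors that set position along the body axis, and retinoic acid induces them in order of their place in each cluster. Of 36 Hox genes past the filter 31 (86.1%) were above 0, against 46.1% of all genes, and the median was 0.25. Among the 36, 3 were 2-fold higher and 1 was 2-fold lower, against 0.830% and 0.399% of all genes. In undifferentiated cells the median difference was 0.07. Hoxc8 read 6.95 and 7.99 in wild-type cells without and with retinoic acid, and 6.77 and 9.27 in the Ctcfl line, a difference of 1.28. Hoxa9 differed by 1.06 and Hoxc9 by 1.03, of which Hoxc9 fell short of 2-fold after quantile normalization. In treated wild-type cells Hoxa9 read 6.46 and Hoxc9 6.70, signals that overlap those of olfactory receptor genes. Hoxc6, Hoxd8 and Hoxa7 followed with 0.82, 0.75 and 0.57. Hoxc5 went the other way, with 4.62 and 9.43 in the wild type and 5.56 and 8.39 in the Ctcfl line, a difference of -1.04. Its neighbours Hoxc8 and Hoxc9 in the same cluster were among the highest of the family, so the cluster held both directions. Of the 14 Hox cofactor and Cdx genes none was 2-fold apart, and Meis1, a cofactor induced by retinoic acid, differed by -0.58.

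The neural tube and brain patterning lists lay below 0, and the list of young neurons lay near the median of all genes. All had few 2-fold genes. In the list of neural tube and hindbrain identity 32 of 43 genes were below 0, 1 was 2-fold higher and 0 lower, and the median was -0.19. In forebrain and midbrain patterning 10 of 31 genes were above 0, none was 2-fold apart, and the median was -0.15. Glial and immune genes, another list with low signals, also had a median of -0.15, with 30% above 0 against 46.1% of all genes. Their median signal was 6.98 in treated wild-type cells, and that of the forebrain and midbrain list 7.16. With the filter at log2 7 the median of all genes was 0.0025. The part of low signal in these list medians was not tested. Fabp7, a fatty acid binding protein of neural progenitors, was 2-fold higher with 1.16, and it was 1.29 higher in undifferentiated cells. Pax6, an eye and forebrain factor, read 9.47 and 8.63 on the treated wild-type and Ctcfl-line arrays, a difference of -0.83. Among 52 genes of young neurons, 1 was 2-fold higher and 1 lower. Their median was -0.03 against -0.02 for all genes, with 44.2% above 0 against 46.1%. Ina, a neuronal intermediate filament, differed by 1.17. Stmn2, a microtubule regulator of growing axons, read 11.65 and 10.80 in the wild type and 10.01 and 9.34 in the Ctcfl line. Stmn2 was thus lower in the Ctcfl line in both states, by 1.46 in retinoic acid (2.74-fold). Foxp2, a forkhead factor of the developing brain, read 6.95 and 9.04 in the wild type and 5.85 and 7.13 in the Ctcfl line, a difference of -1.91.

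Endoderm genes lay lower in the Ctcfl line. Of 50 endoderm genes past the filter 41 were below 0 and 18% above 0, against 46.1% above 0 over all genes. Of the 50, 5 were 2-fold lower and 1 was 2-fold higher, against 0.399% and 0.830% of all genes. The median of -0.25 was the lowest of the 54 lists. Endoderm genes had median signals of 7.47 and 7.13 on the treated wild-type and Ctcfl-line arrays, against 8.02 and 8.10 for all genes. The part of low signal in the endoderm median was not tested. The 2-fold lower genes were Nepn, Maob, Ttr, Gata6 and Krt19, and the higher one was Trh. Nepn, a leucine-rich repeat protein of the midgut endoderm, read 6.15 and 10.76 in wild-type cells without and with retinoic acid, and 5.61 and 7.25 in the Ctcfl line. The treated wild-type array stood far above the other 3, and the difference was -3.51 (11.4-fold). Gata6, a zinc finger factor of primitive endoderm and heart, read 7.93 and 11.24 in the wild type and 7.23 and 10.08 in the Ctcfl line, a difference of -1.16. Ttr, a thyroid hormone carrier, differed by -1.22 and Foxa1, a forkhead factor of gut, by -0.85. Over the 51 measured endoderm markers, 48 reached log2 6 in treated wild-type cells and 46 in the treated Ctcfl line. Their summed linear signal was 24245 and 21214. In undifferentiated cells it was 24214 in the wild type and 28319 in the Ctcfl line. These sums include Trh, which read 13.13 and 13.59 on those 2 undifferentiated arrays, and its share was not taken out. They are therefore not a measure of endoderm content.

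**Figure D2:**
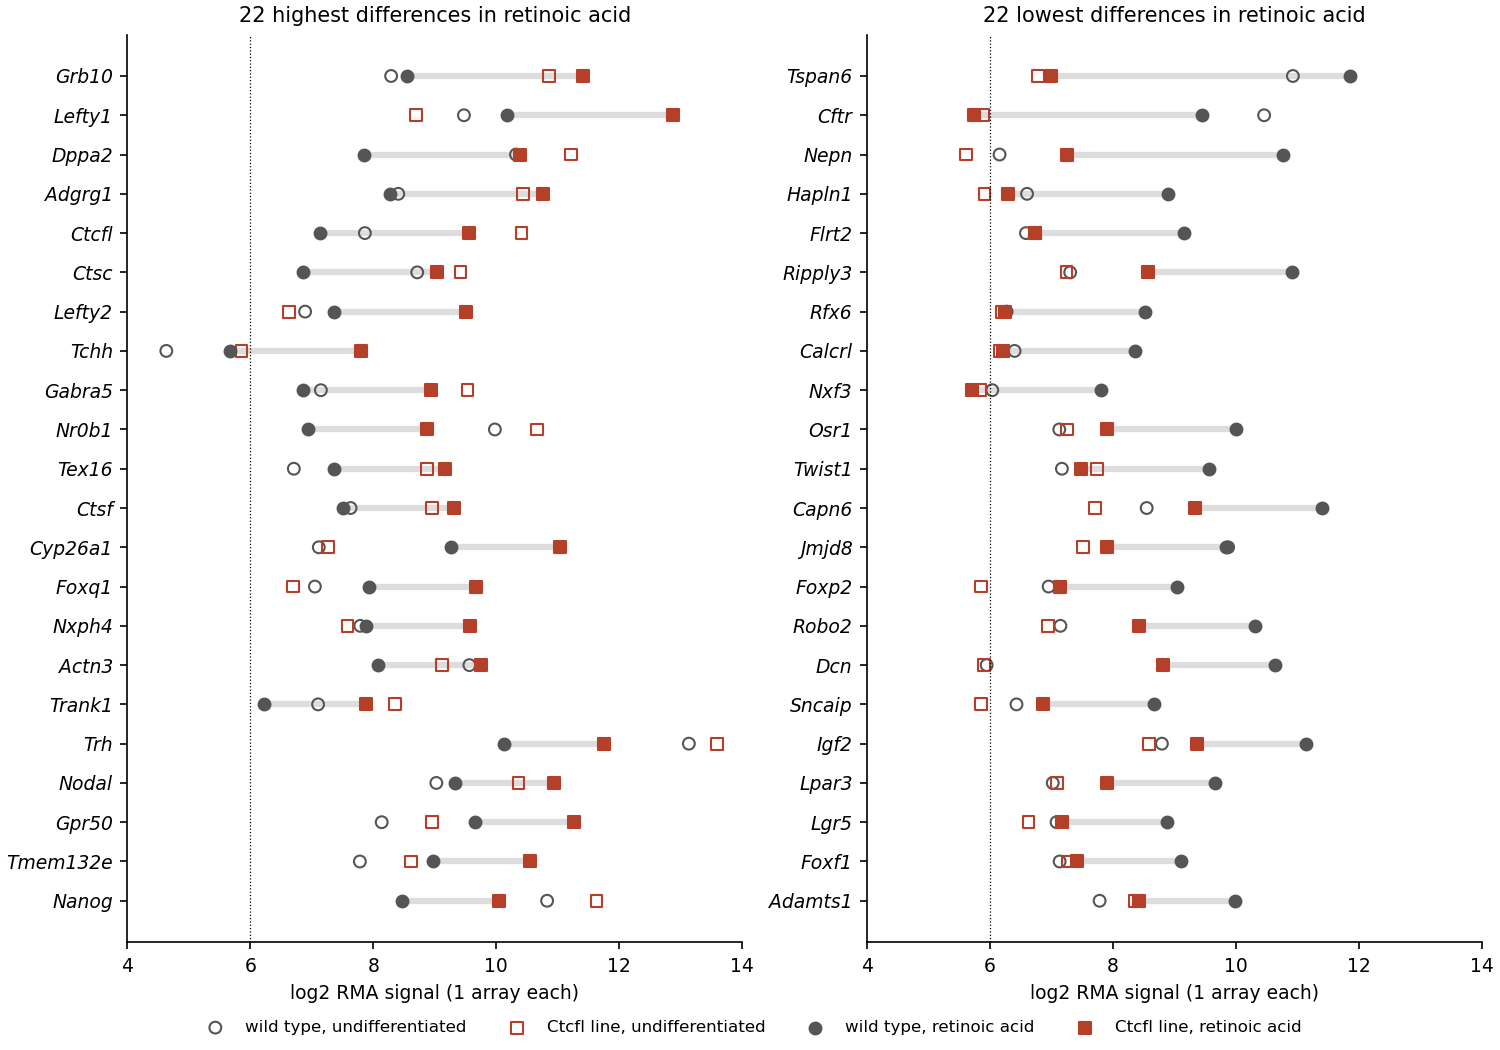
Log2 RMA signal on each of the 4 arrays (horizontal axis) for the 22 named protein-coding genes with the highest (left) and lowest (right) difference in retinoic acid. Circles are wild type, squares the Ctcfl line, open symbols undifferentiated and filled symbols treated cells, grey bars join the treated arrays, and the dotted line marks log2 6. Most of the lowest genes, such as Nepn and Ripply3, have their highest value in treated wild-type cells, whereas Tspan6, Cftr and Jmjd8 are high on both wild-type arrays.

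Several factors of mesoderm and pharynx were also highest in treated wild-type cells. Ripply3, a partner of T-box factors in the pharynx, read 7.30 and 10.91 in the wild type and 7.24 and 8.57 in the Ctcfl line, a difference of -2.34. Osr1, a zinc finger factor of intermediate mesoderm, read 7.13 and 10.00 in the wild type and 7.26 and 7.90 in the Ctcfl line, a difference of -2.10. Twist1, a factor of mesenchyme and neural crest, read 7.17 and 9.56 in the wild type and 7.74 and 7.48 in the Ctcfl line. For Twist1 the treated Ctcfl line was no higher than the undifferentiated one, and the difference was -2.08 (4.22-fold). Foxf1, a forkhead factor of lateral plate mesoderm, read 7.13 and 9.11 in the wild type and 7.27 and 7.42 in the Ctcfl line, a difference of -1.69. Rfx6, a factor of pancreas and gut endocrine cells, differed by -2.28, and Mab21l1 by -1.43. In each of these genes the 2 undifferentiated arrays lay within 0.57 of each other.

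Counts over the lineage lists were small, and over all genes 0.830% were 2-fold higher and 0.399% lower. Of 41 genes of mesenchyme and smooth muscle 4 were 2-fold lower and 0 higher (Twist1, Dcn, Lum and Csrp2), with a median of -0.07. The neural crest list had 2 of 29 lower, Twist1 and Tfap2a, and 1 higher, Sox10 at 1.17. The list of intermediate mesoderm, kidney and gonad had 2 of 33 lower and 1 higher. The lower ones were Osr1 and Ret, a receptor of the kidney and enteric neurons that differed by -1.39, and the higher one was Dmrt1, a gonadal factor, at 1.22. Of 35 genes of endothelium and blood, Cdh5, the cadherin of endothelial junctions, differed by -1.30, and 0 were 2-fold higher. Where the lower signal lies under log2 6 the fold is given against log2 6 as a lower bound. Emcn, the other gene counted as 2-fold lower, was by that bound at least 1.59-fold lower. In heart and lateral plate 1 of 37 was 2-fold lower (Foxf1) and 0 higher. In primitive streak and early mesoderm, 3 of 29 were higher (Lefty2, Cyp26a1 and Nodal) and 0 lower. All 3 were also counted in other lists above. In somite and skeletal muscle, Ripply1 at 1.01 was the only 2-fold gene of 34, and it fell short after quantile normalization. The summed linear signal in treated wild-type cells and the treated Ctcfl line was 34855 and 30502 for mesenchyme, 12631 and 10512 for neural crest, and 7009 and 6705 for endothelium and blood. It was 8348 and 8653 for somite and skeletal muscle, and 3331 and 3755 for glial and immune cells. The part of cell composition in the lower genes was not tested.

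**Figure D3:**
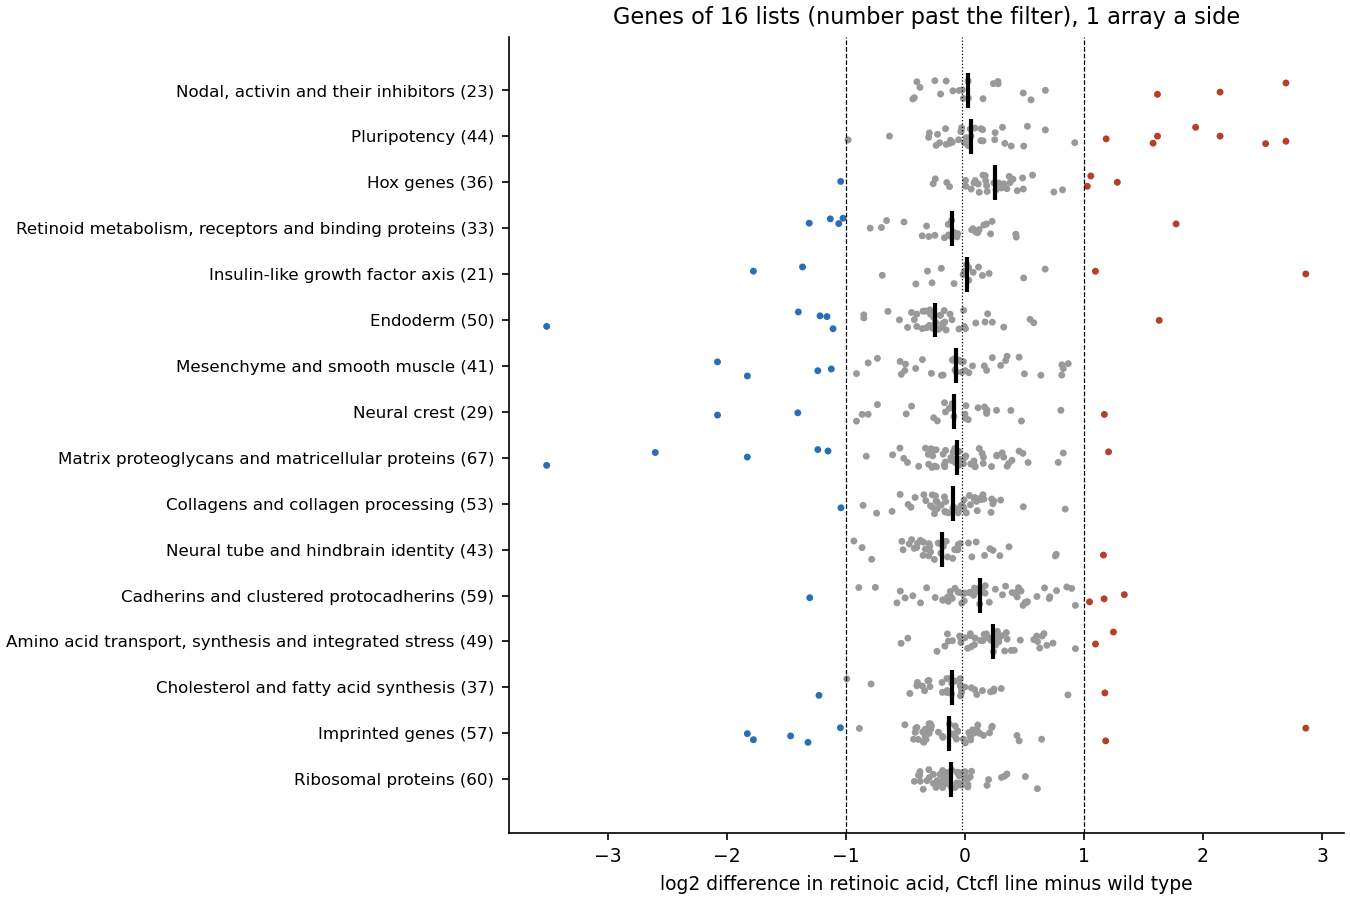
Log2 difference in retinoic acid (horizontal axis) of every gene past the filter in 16 of the 54 gene lists, with the number of genes in brackets. Black bars are list medians, the dotted line is the median of all genes, and dashed lines mark 2-fold. Endoderm lies to the left with a median of -0.25 and Hox genes to the right with 0.25; the pluripotency list has 7 genes beyond 2-fold on the right and 0 on the left.

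Matrix genes were among the lower ones. Of 67 proteoglycans and matricellular proteins 5 were 2-fold lower and 1 was higher, against 0.399% and 0.830% of all genes. Dcn (decorin) read 5.94 and 10.64 in wild-type cells without and with retinoic acid, and 5.90 and 8.81 in the Ctcfl line, a difference of -1.83 (3.55-fold). Its neighbour Lum (lumican), another collagen-binding proteoglycan, was at least 2.03-fold lower. Hapln1, a link protein of hyaluronan and proteoglycans, read 6.60 and 8.89 in the wild type and 5.91 and 6.29 in the Ctcfl line, a difference of -2.60 (6.06-fold). Adamts1, a protease that cuts proteoglycans, differed by -1.56, and Timp1, an inhibitor of matrix proteases, by -1.23. Timp1 was also lower in undifferentiated cells, by 1.02. Gpc4, a glypican on the cell surface, was the 2-fold higher member with 1.21. Of 53 collagen and collagen-processing genes only P4ha3, a prolyl hydroxylase subunit, was 2-fold apart (-1.04), with Col2a1 the highest at 0.84. Among 34 laminins, nidogens and integrins none was 2-fold apart, and Itga8 was the highest at 0.77.

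The growth factor genes with large differences belonged to several pathways. Igf2, a fetal growth factor, read 8.80 and 11.14 in the wild type and 8.59 and 9.36 in the Ctcfl line, a difference of -1.78 (3.43-fold). Igfbp5, which binds it outside the cell, read 7.34 and 10.85 in the wild type and 7.07 and 9.49 in the Ctcfl line, a difference of -1.36. Its neighbour Igfbp2 went the other way, with 10.22 and 11.32 on the treated arrays, a difference of 1.10. Grb10, an imprinted adaptor that restrains insulin and IGF receptors, read 8.29 and 8.55 in the wild type and 10.85 and 11.42 in the Ctcfl line. Both Ctcfl-line arrays stood above both wild-type arrays, by 2.56 undifferentiated and 2.86 in retinoic acid (7.28-fold). The receptor genes Igf1r, Igf2r and Insr differed by -0.28, -0.41 and 0.11, and the substrates Irs1 and Irs2 by 0.49 and 0.67. In all, 2 of 21 genes of the axis were 2-fold higher and 2 lower, against 0.830% and 0.399% of all genes.

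Receptors and guidance molecules showed single genes rather than pathways. Flrt2, a membrane protein that binds FGF receptors and guides axons, read 6.58 and 9.16 in the wild type and 6.73 and 6.73 in the Ctcfl line, a difference of -2.43 (5.39-fold). Its relative Flrt1 was 1.12 higher. No ligand or receptor of the FGF list was 2-fold apart besides Flrt1, Flrt2 and the binding protein Fgfbp1, among 44 genes. Lgr5, a receptor for R-spondins that boosts Wnt signalling, read 7.08 and 8.87 in the wild type and 6.63 and 7.17 in the Ctcfl line, a difference of -1.70. With the mean of its probe sets Lgr5 was just past 2-fold lower, and it was the only 2-fold gene among 65 Wnt genes. Hhip, a decoy receptor for Hedgehog ligands, read 7.59 and 7.43 in the wild type and 6.37 and 8.98 in the Ctcfl line. It was 1.22 lower in the undifferentiated Ctcfl line and 1.55 higher in the treated one, and was the only 2-fold gene of 21 in the Hedgehog list.

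Robo2, a receptor for Slit guidance cues, read 7.14 and 10.31 in the wild type and 6.94 and 8.42 in the Ctcfl line, a difference of -1.88 (3.68-fold). In the same list of 73 axon guidance genes, Epha2, an ephrin receptor, was 1.44 higher, Ntng2 1.37 and Sema3e 1.10, of which Sema3e fell short of 2-fold after quantile normalization. Pdgfd, a platelet-derived growth factor, was 1.27 higher, and 1.39 higher in undifferentiated cells. Ddr1, a collagen receptor, was 1.06 higher, but 0.38 with the mean of its probe sets. Calcrl, a receptor subunit for adrenomedullin and CGRP, read 6.40 and 8.36 in the wild type and 6.15 and 6.22 in the Ctcfl line, a difference of -2.15. Lpar3, a receptor for lysophosphatidic acid, differed by -1.76. The undifferentiated arrays lay within 0.25 of each other in both genes, and the high array was treated wild type. None of 30 Notch genes was 2-fold apart, with Nrarp and Jag1 the highest at 0.81 and 0.74.

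A smaller set of genes differed between the lines in both states. Tspan6, a tetraspanin membrane protein, read 10.93 and 11.85 in wild-type cells without and with retinoic acid, and 6.78 and 6.98 in the Ctcfl line. The difference was -4.15 undifferentiated and -4.87 (29.2-fold) in retinoic acid, the lowest of all genes past the filter. Cftr, a chloride channel, read 10.46 and 9.44 in the wild type and 5.88 and 5.74 in the Ctcfl line, at least 10.9-fold lower in retinoic acid. Both Ctcfl-line values of Cftr lay below the filter. Jmjd8, a JmjC domain protein, read 9.87 and 9.85 in the wild type and 7.51 and 7.90 in the Ctcfl line, a difference of -1.94. No measured neighbour of Tspan6 or Cftr within 2 places was 2-fold apart in either state. Pcdh19, Srpx2 and Sytl4 around Tspan6 differed by 0.52, -0.25 and 0.27. Wnt2, Cttnbp2 and Lsm8 around Cftr differed by -0.08, -0.62 and -0.10. Cttnbp2, next to Cftr, was also lower undifferentiated, at -0.54.

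On the higher side, Adgrg1, an adhesion receptor also called GPR56, read 8.41 and 8.27 in the wild type and 10.43 and 10.76 in the Ctcfl line. Gabra5, a GABA receptor subunit, read 7.15 and 6.85 in the wild type and 9.53 and 8.93 in the Ctcfl line. Tex16, a testis gene of the X chromosome, read 6.71 and 7.36 in the wild type and 8.88 and 9.17 in the Ctcfl line. In all 3 genes both Ctcfl-line arrays lay above both wild-type arrays. Their differences in retinoic acid were 2.49 for Adgrg1, 2.08 for Gabra5 and 1.81 for Tex16. The second Tex16 probe set gave 2.34, and the adjacent gene 4933403O08Rik 1.67. Ctsf, the lysosomal protease cathepsin F, differed by 1.80, and by 1.33 undifferentiated. Zcwpw1, a reader of histone marks in meiosis, differed by 1.39, and by 1.84 undifferentiated. Around Grb10, Ddc and Cobl differed by -0.11 and -0.42. Among 44 germ line and meiosis genes Zcwpw1 was the only 2-fold one. Of 30 testis antigen and X-linked testis genes Tex16 was 2-fold higher and Nxf3, an RNA export factor relative, at least 3.51-fold lower.

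The undifferentiated line difference shares no array with the treated one. There 133 genes (0.726%) were 2-fold higher in the Ctcfl line and 200 (1.09%) 2-fold lower. Of the 152 genes higher in retinoic acid, 26 were also 2-fold higher undifferentiated and 4 were 2-fold lower. In all 100 of the 152 (65.8%) were above 0 undifferentiated, against 46.8% of all genes, and 91 lay within 0.5 of 0. Of the 73 lower genes, 12 were also 2-fold lower undifferentiated and 0 were 2-fold higher. Of these 73, 55 (75.3%) were below 0, against 53.1% of all genes, and 46 lay within 0.5 of 0. Most of the 225 genes were thus less than 2-fold apart without retinoic acid.

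**Figure D4:**
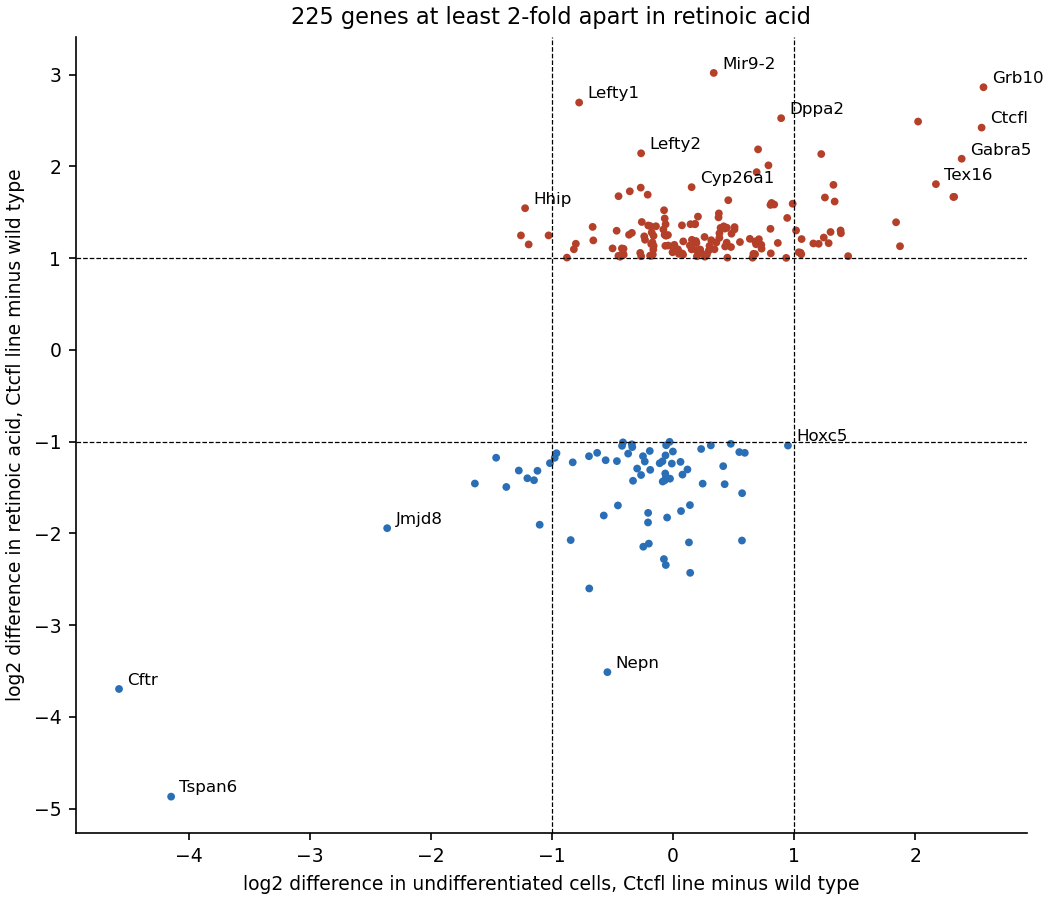
Difference between the lines in retinoic acid (vertical axis, log2) against that in undifferentiated cells (horizontal axis, log2) for the 225 genes at least 2-fold apart in retinoic acid. Dashed lines mark 2-fold in each state. The band around 0 on the horizontal axis holds 91 of the 152 higher and 46 of the 73 lower genes within 0.5, and Tspan6, Cftr, Grb10 and Ctcfl lie far from 0 on both axes.

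Imprinted genes, which are read from 1 parental copy and are often bordered by Ctcf sites, were not shifted one way by 2-fold. Of 57 genes past the filter 2 were higher (Grb10 and Plagl1) and 5 lower (Dcn, Igf2, Zim1, Magel2 and Nnat). The shares over all genes were 0.830% and 0.399%. The median of the imprinted list was -0.13. Zim1, a zinc finger gene, read 8.50 and 11.03 in the wild type and 8.92 and 9.57 in the Ctcfl line, a difference of -1.46. Magel2 was lower in both states, by 1.32 in retinoic acid and 1.12 undifferentiated. Plagl1 and Nnat stood at 1.18 and -1.05, but at 0.87 and -0.49 with the mean of their probe sets. The growth regulator Cdkn1c differed by -0.35, Dlk1 by -0.22, Mest by -0.29 and Peg3 by -0.34.

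MicroRNA genes were measured through their precursors, so these values say nothing of the mature molecules. Of 274 microRNA genes past the filter 6 were 2-fold higher and 0 were 2-fold lower, against 0.830% and 0.399% of all genes. The mature sequences of the 6 are shown from RefSeq, assembly GRCm38.p6, because they tell which targets each could read. The seed, bases 2 to 8, is in capitals. No seed is shared among the 12 arms.
mmu-miR-9-5p: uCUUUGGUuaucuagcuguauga
mmu-miR-9-3p: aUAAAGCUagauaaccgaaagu
mmu-let-7e-5p: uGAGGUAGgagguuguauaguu
mmu-let-7e-3p: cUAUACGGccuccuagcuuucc
mmu-miR-323-5p: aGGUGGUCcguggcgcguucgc
mmu-miR-323-3p: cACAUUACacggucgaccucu
mmu-miR-380-5p: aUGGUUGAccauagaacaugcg
mmu-miR-380-3p: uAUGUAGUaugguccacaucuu
mmu-miR-377-5p: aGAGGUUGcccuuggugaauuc
mmu-miR-377-3p: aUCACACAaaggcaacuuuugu
mmu-miR-670-5p: aUCCCUGAguguauguggugaa
mmu-miR-670-3p: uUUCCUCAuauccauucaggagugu
Mature miR-9 lies at chr13:83738821-83738843 for the 5p arm, let-7e at chr17:17830366-17830387, and miR-323 and miR-377 at chr12:109712523-109712544 and chr12:109740515-109740536, all on the plus strand.

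Mir9-2, which encodes the neural microRNA printed first, read 3.04 and 3.18 in the wild type and 3.37 and 6.20 in the Ctcfl line. The treated Ctcfl line stood apart from the other 3 arrays, which lay far below the filter. The difference of 3.02 is the highest of all genes, but against log2 6 the bound is at least 1.15-fold. The adjacent long RNA gene C130071C03Rik read 5.51 and 5.57 in the wild type and 5.25 and 7.34 in the Ctcfl line, at least 2.53-fold higher in retinoic acid. The other copies, Mir9-1 and Mir9-3, which give the same mature arm, differed by -0.20 and -0.09. Mirlet7e differed by 1.36, and by 0.96 with the mean of its probe sets. Spaca6, a sperm membrane gene 2 places away, differed by 1.31. Of 12 let-7 family genes 9 were above 0, with a median of 0.23, though 7 of them lay below the filter on all arrays.

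Mir380, Mir323 and Mir377 lie in the imprinted cluster between Dlk1 and Dio3. They differed by 1.10, 1.10 and 1.01, and Mir377 fell short of 2-fold after quantile normalization. Mir323 read 5.90 and 6.24 in wild-type cells without and with retinoic acid, and 6.06 and 7.34 in the Ctcfl line. Over all 43 measured microRNA genes of the cluster, 37 were above 0 and the median was 0.41, against 0.11 in undifferentiated cells. Of all 274 microRNA genes past the filter 52.6% were above 0, with a median of 0.02. Among the other genes of the cluster Dlk1 differed by -0.22, Meg3 by 0.06, Rian by 0.21 and Dio3 by -0.33. The 6 small nucleolar RNA genes AF357425, AF357426, DQ267101, AF357355, DQ267102 and AF357341 were all above 0, between 0.10 and 0.40. Of these 43 genes 35 passed the filter. A further group, 24 genes of the Mir297, Mir466, Mir467 and Mir669 families, had 22 genes above 0 and a median of 0.45, and of 0.56 undifferentiated. These repeat-rich families are near-identical, so their probe sets may share signal. Both groups were singled out after their values were seen.

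**Figure D5:**
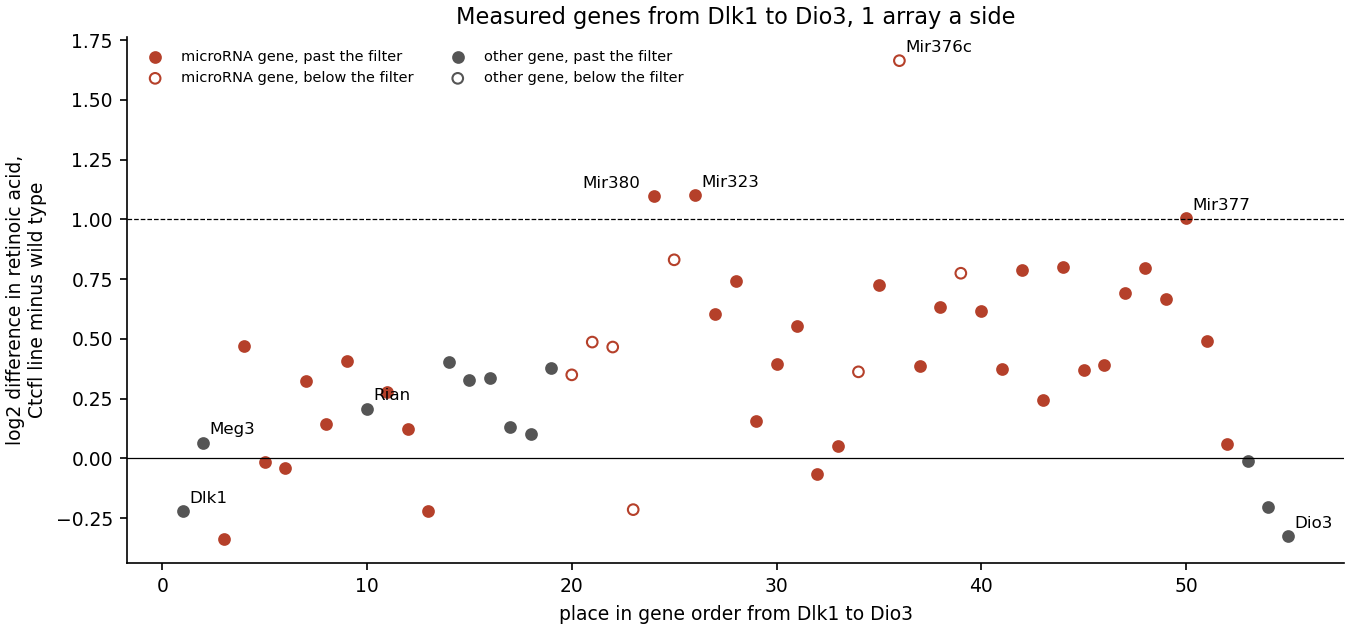
Log2 difference in retinoic acid (vertical axis) of the measured genes from Dlk1 to Dio3, by place in gene order (horizontal axis). Red points are microRNA genes and grey points other genes, open points lie below the filter, the solid line is 0 and the dashed line 2-fold. Of the 43 microRNA genes 37 lie above 0, while Dlk1 and Dio3 at the ends lie below it.

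Metabolic and stress genes showed shifts below 2-fold. Of 49 genes of amino acid transport, synthesis and the integrated stress response 39 (79.6%) were above 0, against 46.1% of all genes. Of the 49, 2 were 2-fold higher and 0 lower, against 0.830% and 0.399% of all genes, and the median was 0.24. In undifferentiated cells the median of the same list was -0.47, with 9 genes 2-fold lower. The 2-fold genes in retinoic acid were Vldlr, a lipoprotein receptor, at 1.25 and Slc7a3, a transporter of basic amino acids, at 1.10. Ddit3 (CHOP), Mthfd2, Slc7a5, Atf4 and Asns followed with 0.93, 0.74, 0.69, 0.66 and 0.63. Atf4 is the factor that drives the other 4 under amino acid shortage. Insig1, which holds back sterol synthesis, was the lowest of 37 cholesterol and fatty acid genes at -1.23, and Fads3, a desaturase relative, the highest at 1.18. Of 38 genes of glutathione and oxidative stress Gpx7 and Hmox1 were 2-fold higher at 1.15 and 1.09. Plk3, a stress kinase, was 1.49 higher and the only 2-fold gene among 29 p53 targets and apoptosis genes. Hspb1, a small heat shock protein, was 1.14 higher, but 0.71 with the mean of its probe sets.

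Channels, junctions and chromatin genes gave few 2-fold members. Cacna1g, a calcium channel, was 1.20 higher and, with Cftr, 1 of 2 such genes among 59 ion channels. Gabra5 was the only one of 41 ligand-gated receptor subunits, and Adgrg1 and Adgrg2 the only ones of 18 adhesion receptors. In the cadherin list 3 of 59 were higher, Pcdh1 at 1.34, Pcdhb15 at least 2.24-fold and Pcdhb18 at 1.05, and Cdh5 was lower. Pcdhb genes are near-identical neighbours whose probe sets may share signal, and Pcdhb18 fell short of 2-fold after quantile normalization. Phf19, a Polycomb partner, was the only 2-fold gene of 46 in its list at 1.04, and it too fell short after quantile normalization. Oasl2, an interferon-induced gene, was the only one of 34 interferon and antigen presentation genes at 1.37. In epithelium, junctions and trophoblast Fgfbp1 was higher, at least 1.76-fold, and Krt19 lower, among 51.

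In 12 of the 54 lists no gene was 2-fold apart. Medians in these lists ran from -0.23 for 20 replication-dependent histones to 0.08 for laminins, nidogens and integrins. The 60 ribosomal protein genes had a median of -0.12, with 15 of them above 0, and the 55 genes of the respiratory chain a median of 0.05. Glycolysis genes had a median of -0.16, with Tpi1 and Pfkl the lowest at -0.83 and -0.80. Of 45 cell cycle regulators Cdkn1a (p21) was the highest at 0.83 and Mycn the lowest at -0.95. Myc and Btg2 were the lowest immediate early genes at -0.64 and -0.62. Of the 152 higher genes 49 stood in a list, and of the 73 lower genes 38.

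Other genes with large values stood in no list. Ctsc, the lysosomal protease cathepsin C, read 8.71 and 6.85 in the wild type and 9.42 and 9.04 in the Ctcfl line, a difference of 2.19 (4.55-fold). Treated wild-type cells were the lowest of the 4 arrays for Ctsc, as for Dppa2. Foxq1, a forkhead factor, read 7.05 and 7.94 in the wild type and 6.69 and 9.67 in the Ctcfl line, a difference of 1.73, and of 1.10 with the mean of its probe sets. Tchh, a hair follicle protein, was at least 3.48-fold higher. Actn3, a muscle actinin next to Ctsf, differed by 1.68, but by -0.45 undifferentiated. Gpr50, a melatonin receptor relative, differed by 1.60 and Aqp3, a water and glycerol channel, by 1.39. Cpeb1, which controls polyadenylation of messenger RNA, differed by 1.43, and its neighbour Ap3b2 by 1.10. Among the lower genes, Capn6, a calpain without protease activity, read 8.55 and 11.41 in the wild type and 7.70 and 9.33 in the Ctcfl line, a difference of -2.07. Sncaip (synphilin), Cpq and Arg1, the arginase of the urea cycle, differed by -1.80, -1.49 and -1.46. Apela, a peptide hormone of the early embryo, differed by -1.27 and was picked out after its value was seen.

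Pairs of 2-fold genes close to each other were counted in gene order. There were 21 pairs within 3 places, 17 with the same direction, and 12 of the 21 were direct neighbours, 11 with the same direction. Lefty1 and Lefty2, Dcn and Lum, Ctsf and Actn3, Cpeb1 and Ap3b2, and Hoxc8 and Hoxc9 were such neighbours. Lefty1 was also a neighbour of Tmem63a, so a run of genes gave several of the pairs. Igfbp2 and Igfbp5 were the neighbours with opposite directions. Over all genes past the filter 0.830% were 2-fold higher and 0.399% lower. With 152 higher and 73 lower genes, unrelated pairs would also often agree in direction. The number of pairs expected from placement alone was not computed. Some pairs, such as Lefty1 and Lefty2, are paralogs whose probe sets may share signal. Within genes, 18 of the 225 had more than 1 probe set, and another probe set of 12 of them reached the filter. It had the same direction in 11 of the 12 and was itself 2-fold apart in 1, Tex16. Ddr1 was the exception in direction, with -0.29 in its second probe set. Signals up to about log2 7 overlap those of olfactory receptor genes, which are not expected in these cells: their 95th percentile lay between 6.82 and 6.95 on the 4 arrays. Folds such as those of Hapln1 and Flrt2, with 6.29 and 6.73 in the treated Ctcfl line, rest on such signals. Of the 2-fold genes, 15 higher and 10 lower ones had their weaker signal under log2 6, of which 4 and 5 were still 2-fold apart against log2 6.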

How the data were processed

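RNA of 4 P19 cultures was measured on Affymetrix mouse gene arrays, 1 array per line and state. Per the labels, the authors computed the deposited log2 signals with Affymetrix Expression Console, by RMA. That method removes background, equalises the arrays by quantiles and condenses the probes of a set to 1 value. Transcriptome Analysis Console is also named in the submitters' processing notes. Versions and the genome build are not given in the sources used here. Nothing further was normalized. Genes were named from the platform annotation: 23521 probe sets had 1 symbol, 1814 several and 16010 were not listed there. The probe set with the highest mean stood for a gene. The filter was log2 6 on any of the 4 arrays; 1105 olfactory receptor genes, a guide to background, had array medians of 4.68 to 4.78 and 95th percentiles of 6.82 to 6.95, so the filter lets some background through.

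Differences were subtracted and counted at 2-fold, with no test, since each side has 1 array. The procedure was run on simulated arrays with independent noise and planted differences larger than 2-fold. That run checks the computation only and says nothing of the error of the 2-fold calls. Sequences and gene order came from RefSeq tables on GRCm38.p6. The comparison, the 54 gene lists and the naming rule were chosen with earlier results of these data known. The rule names Ctcfl and Ctcf, the 30 highest and 30 lowest genes with a real symbol, up to 4 2-fold genes per list (2 with the largest differences where none is 2-fold), label checks, 2 neighbours each side of Tspan6, Cftr, Grb10 and Ctcfl, and microRNA genes in a list or 2-fold apart. Members of lists are also named as examples after their values were seen. The alternatives were quantile normalization, probe set means, no filter, other filters, a 3-fold limit and list means. Python 3.11.15, pandas 2.3.3, numpy 2.4.6 and matplotlib 3.10.9 were used.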

Additional observations from a re-analysis of the deposited data

Results flagged for a closer look

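Some genes changed sign between states: 4 were at least 2-fold higher in the treated Ctcfl line and at least 2-fold lower in the undifferentiated one, with 1 array a side, so the differences between states were not tested. Hhip, the Hedgehog decoy receptor, had 1.55 in retinoic acid and -1.22 undifferentiated. Pde9a, a phosphodiesterase that degrades cyclic GMP, had 1.25 and -1.26. Vldlr had 1.25 and -1.03. Acss1, a mitochondrial acetyl-CoA synthetase, had 1.15 and -1.19, and its second probe set, near background, 0.31 and 0.03. The list of amino acid transport, synthesis and integrated stress also changed sign, with a median of 0.24 in retinoic acid and -0.47 undifferentiated, which was not tested either.

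Probe sets without a gene in the annotation gave a signal outside the gene counts. In retinoic acid 417 of 10332 were at least 2-fold higher in the Ctcfl line and 40 lower. Undifferentiated the counts were 462 higher and 96 lower. With retinoic acid against without it, 639 were higher and 111 lower in the wild type, and 845 and 101 in the Ctcfl line. The 417 had median signals of 5.58 and 5.85 in the wild type without and with retinoic acid, and 6.05 and 7.20 in the Ctcfl line. What they measure is not named in the table used here.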

How the results depend on the processing

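Single arrays give no replicate error, so all calls are folds without a test, and no paired analysis was possible because each group has 1 array. The counts of 152 higher and 73 lower genes became 130 and 77 after quantile normalization of the 4 arrays, which shifts the median of all genes by -0.03, 143 and 68 with means over probe sets, 162 and 79 without the filter, 142 and 68 with the filter at log2 7, and 151 and 73 with the filter on the 2 treated arrays. At 3-fold they were 27 and 21. Quantile normalization left 22 higher genes short of 2-fold and kept the other 130. Means over probe sets lost 10 higher and 5 lower genes. No 2-fold difference changed sign under the alternatives tried. Of 54 list medians, 7 close to 0 changed sign after quantile normalization, and the median of the Nodal list became a mean of 0.29 and that of pluripotency a mean of 0.34. The Mir302 and Mir290 list had no gene left with the filter on the treated arrays. Signals near log2 6 are close to background, so the folds of 15 higher and 10 lower genes are bounds.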
